A study of Arabidopsis thaliana with 18 samples.

Results

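Among the nuclear genes of Arabidopsis thaliana that the array annotation knows only by a locus code, 150 loci were described whose transcripts lay furthest towards the non-polysomal part of a sucrose gradient. They were chosen from 3547 eligible probe sets, each annotated to exactly 1 nuclear gene named only by its locus code and each with a mean log2 signal of 6 or more in wild-type total RNA. For each probe set the mean polysomal level minus the mean non-polysomal level, called loading here, was taken in wild type and in gcn2, and the larger of both values (the less negative one) was the ranking value. The 150 probe sets with the lowest ranking value, 4.23% of the eligible ones, stood for 150 different loci, all of them protein-coding in the RefSeq gene table. Because the ranking used the loading of both genotypes, low loading is a description of how these loci were chosen and carries no test.

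The study set a gcn2 mutant against wild type in transcript level and in translation state. All plants were of the Landsberg erecta line, and the 6 groups of 3 arrays were wild-type polysomal, non-polysomal and total RNA and gcn2 polysomal, non-polysomal and total RNA. The labels name neither the gcn2 allele nor a treatment, and the growth conditions they give are the same for both genotypes: plates of GM medium set with 0.8% agar and holding sucrose at 1%, at 22 °C and with a day of 16 h at about 80 µmol per square metre and second. The aerial part of seedlings 10 days old was frozen 4 h after the lights came on, and the 6 fractions from the bottom of each gradient were pooled as polysomal and the 6 from the top as non-polysomal. The labels do not say whether replicates came from separate plantings, so each p-value speaks of the spread between these arrays only, which may be technical.

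An mRNA that several ribosomes translate at once travels as a heavy polysome and sediments to the bottom of a sucrose gradient, whereas free mRNA particles, ribosomal subunits and mRNAs with few ribosomes stay near the top. A transcript with low loading is one whose signal is higher in the light pool than in the heavy pool, each taken relative to the other transcripts on the same arrays. GCN2 is a protein kinase that phosphorylates the initiation factor eIF2 on its alpha subunit when uncharged tRNA accumulates, which lowers the initiation of translation. GCN2 itself was not analysed here.

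The deposited values were log2 signals with array medians of 5.05 to 5.18, so a level in one RNA type can be set against another only relative to everything else on its array. Between arrays of the same group Pearson's r was 0.974 to 0.994. Of 14 listed green-tissue genes 2 could be read, RCA (the activase of Rubisco) at 13.9 in total RNA of both genotypes and PSB27 (a photosystem II assembly factor) at 11.97 in wild type and 11.91 in gcn2. Of 6 root genes 2 could be read, the root-hair expansins EXPA7 at 3.82 and 3.57 and EXPA18 at 4.41 and 4.33 in wild type and gcn2, and for the 4 seed and 3 anther genes no probe set was matched in the annotation used, so they were not analysed here. The BioB and BioC control probe sets (bacterial transcripts, 10 probe sets) were brighter on the non-polysomal arrays, at 9.99 ± 0.12 in wild type and 10.2 ± 0.21 in gcn2, than on the polysomal arrays, at 9.06 ± 0.38 and 9.31 ± 0.21 (SD, n = 3). The excess of 3′ over 5′ probe sets of 3 control transcripts of the plant was 3.24 ± 0.31 and 3.72 ± 0.42 on the non-polysomal arrays against 2.91 ± 0.16 and 2.99 ± 0.28 on the polysomal ones, in wild type and gcn2. Both measures thus moved with the fraction that defines loading, and their part in the loading values was not tested. On the total RNA arrays of wild type and gcn2 the bacterial controls stood at 8.95 ± 0.44 and 8.97 ± 0.32. The 3′ excess there was 2.28 ± 0.12 and 2.22 ± 0.05, lower than in both fractions. The part of these differences in the comparisons of fractions with total RNA was not tested either.

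Loading of the 150 loci ran from -3.15 to -0.96 in wild type, with a median of -1.44 and quartiles of -1.76 and -1.23. In gcn2 it ran from -3.23 to -0.96, with a median of -1.44 and quartiles of -1.80 and -1.22. The median over all eligible loci was 0.13 in wild type and 0.12 in gcn2. Only 1 locus had a ranking value of -3 or lower, 8 had -2.5 or lower, 18 had -2 or lower, 47 had -1.5 or lower and 137 had -1 or lower, so most of the list lay within a narrow band near its limit. Just inside the limit were AT4G02920 at -0.967, AT1G15920 at -0.963 and AT4G14500 at -0.963, and just outside it were AT1G67910 at -0.957, AT3G60910 at -0.952 and AT1G50740 at -0.948. The limit of 150 thus cut a continuous series of values.

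**Figure D1:**
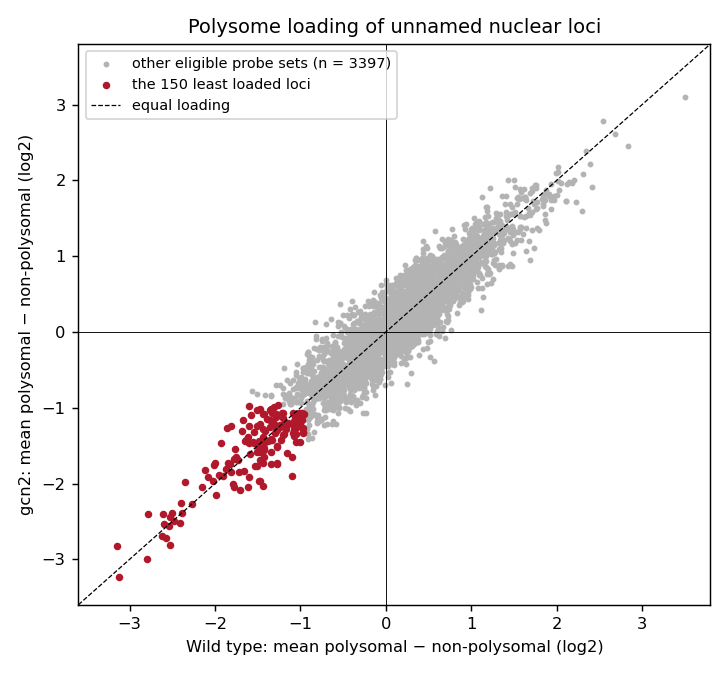
Loading (log2 polysomal minus non-polysomal signal, mean of 3 gradients) in wild type on the horizontal axis and in gcn2 on the vertical axis, for the 150 loci (red) and the other eligible loci (grey); the dashed line marks equal loading. The 150 loci fill the lower left corner, where both loadings are -0.96 or lower, on either side of the line.

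Of the 150 loci, AT1G50290 had the lowest ranking value. Its polysomal levels were 6.73, 7.21 and 7.32 in wild type and 6.60, 6.84 and 6.31 in gcn2, and its non-polysomal levels were 9.88, 10.33 and 10.44 in wild type and 9.67, 10.07 and 9.71 in gcn2. Every non-polysomal array stood more than 2 log2 units above every polysomal one, and the loading was -3.13 in wild type and -3.23 in gcn2 (SE 0.23 for both). Its total RNA levels of 7.58, 7.87 and 7.53 in wild type and 7.99, 7.87 and 7.09 in gcn2 lay between the fractions and nearer to the polysomal ones.

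AT2G46490 was as poorly loaded in wild type and less far so in gcn2. Its polysomal levels of 6.50, 6.69 and 6.79 faced non-polysomal levels of 9.68, 9.84 and 9.91 in wild type, and in gcn2 levels of 6.54, 6.74 and 6.27 faced 9.46, 9.77 and 8.81. The loading was -3.15 in wild type and -2.83 in gcn2 (SE 0.18 for both), and the third gcn2 array was the low one among the non-polysomal arrays. Its total RNA varied little, at 7.08, 7.07 and 7.08 in wild type and 7.07, 7.04 and 7.0 in gcn2.

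AT5G47435 was brighter in all RNA types. Its polysomal levels were 8.02, 8.15 and 8.39 in wild type and 8.08, 8.30 and 7.84 in gcn2, against non-polysomal levels of 10.68, 11.06 and 11.18 and of 10.91, 11.38 and 10.94. Its loading was -2.79 in wild type and -3.0 in gcn2 (SE 0.16 for both). Total RNA, at 9.41, 9.27 and 9.25 in wild type and 9.28, 9.12 and 9.05 in gcn2, lay above all polysomal and below all non-polysomal arrays.

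AT5G20700 had levels that differed widely between replicate numbers while its loading did not. Polysomal levels were 7.01, 8.35 and 8.77 in wild type and 6.67, 8.11 and 8.44 in gcn2, and non-polysomal levels were 9.64, 10.70 and 11.63 and 9.22, 10.84 and 11.27. In both genotypes and both fractions array 1 was the lowest and array 3 the highest. Loading per gradient was nevertheless -2.63, -2.35 and -2.86 in wild type and -2.54, -2.72 and -2.83 in gcn2, so that the fraction difference held within each numbered pair of arrays although its SE in the model without pairing was 0.63.

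Near the other end of the brightness range was AT2G40010, with polysomal levels of 5.10, 4.77 and 4.75 in wild type and 5.59, 5.18 and 4.83 in gcn2, close to the array medians. Its non-polysomal levels of 7.67, 7.38 and 7.30 and of 8.26, 7.84 and 7.67 were all higher, for a loading of -2.58 in wild type and -2.73 in gcn2 (SE 0.25 for both). AT2G32150 stood out for its spread between arrays: polysomal levels were 7.30, 8.03 and 8.31 in wild type and 6.97, 7.34 and 7.05 in gcn2, and non-polysomal levels were 9.82, 10.78 and 10.84 and 9.27, 10.00 and 9.69. Its loading was -2.60 and -2.54 (SE 0.43 for both), and its gcn2 arrays lay mostly below the wild-type arrays of the same fraction.

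The other 6 of the 12 least loaded loci had loadings between -2.40 and -2.81 in both genotypes. AT3G18215 had -2.54 and -2.56 (SE 0.19) in wild type and gcn2, AT2G14460 had -2.53 and -2.81 (SE 0.24), AT5G66240 had -2.48 and -2.5 (SE 0.19), and AT3G61200 had -2.78 and -2.40 (SE 0.24). AT3G47295 varied little on the non-polysomal arrays of wild type, at 10.27, 10.36 and 10.26 against polysomal levels of 7.55, 8.00 and 8.10, and had loadings of -2.41 and -2.52 (SE 0.18). AT3G23325 varied more, and the third array was low in both genotypes: non-polysomal levels were 10.55, 9.97 and 9.10 in wild type and 10.32, 10.49 and 8.65 in gcn2, polysomal levels were 7.49, 7.70 and 6.86 and 7.83, 7.48 and 6.83, and the loadings were -2.52 and -2.44 (SE 0.40).

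**Figure D2:**
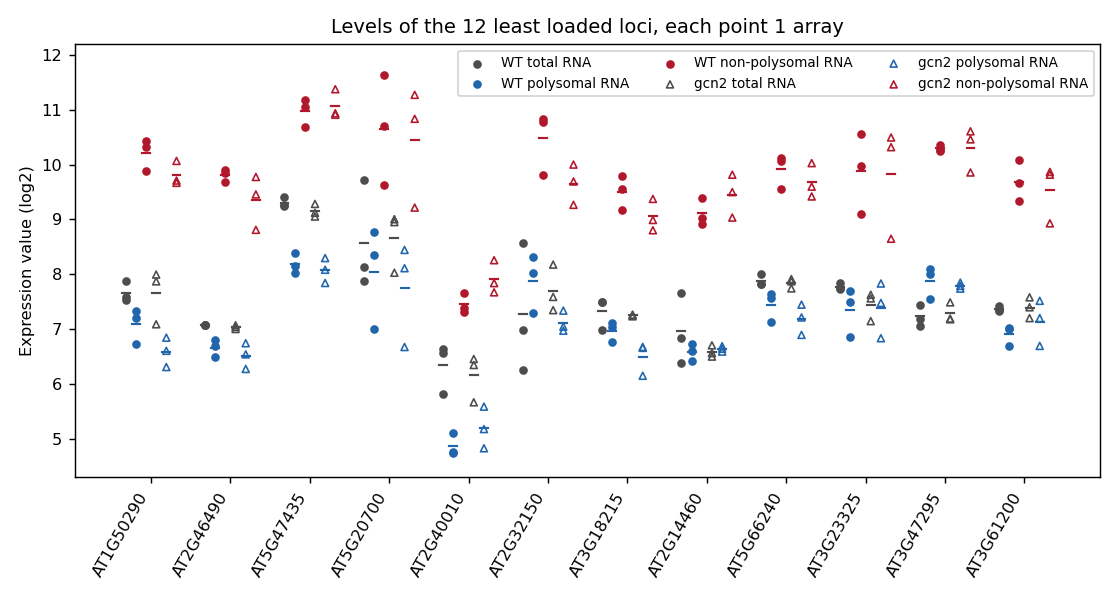
Log2 signal on each array for the 12 least loaded loci, in total RNA (grey), polysomal RNA (blue) and non-polysomal RNA (red); filled circles are wild type, open triangles are gcn2, and a short line is the mean of 3 arrays. In each locus the non-polysomal points lie above the polysomal ones, and the total RNA points lie near or above the polysomal ones except in AT3G47295 and, in some arrays, AT2G32150 and AT2G14460.

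The 3 loci brightest in wild-type total RNA show that low loading was not limited to dim transcripts. AT3G09200 had total levels of 12.01, 11.56 and 12.09 in wild type, polysomal levels of 11.22, 11.02 and 10.86 and non-polysomal levels of 12.43, 12.40 and 12.29, and its loading was -1.34 in wild type and -1.42 in gcn2 (SE 0.15). AT4G16190 had loadings of -1.21 and -1.07 (SE 0.27), and AT1G51200, with non-polysomal levels of 11.78, 12.52 and 12.49 against polysomal levels of 9.76, 10.30 and 10.39 in wild type, had -2.11 and -1.83 (SE 0.22). The 3 loci dimmest in wild-type total RNA, at the minimum of 6 set by the rule, were AT4G22280 with loadings of -2.39 in both genotypes (SE 0.16), AT4G01460 with -1.20 and -1.36 (SE 0.20) and AT5G62900 with -1.48 and -1.44 (SE 0.13). Over the 150 loci the wild-type loading and the wild-type total level had a Spearman rho of -0.145, against 0.180 over all eligible loci, given as a description across loci measured on the same arrays.

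Loading was negative for 150 of 150 loci in each of the 6 gradients. The medians per gradient were -1.44, -1.48 and -1.39 in wild type and -1.46, -1.46 and -1.48 in gcn2. All 3 polysomal arrays lay below all 3 non-polysomal arrays in 149 loci in wild type and 150 in gcn2, against 862 and 811 of the 3547 eligible probe sets. In the limma model 150 of 150 loci were called lower in polysomal RNA in each genotype, beside 13.3% of all tested probe sets in wild type and 13.4% in gcn2. These counts follow from the choice of the loci and are given for completeness.

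The spread of loading between gradients was a small part of its size. Its SD over 3 gradients had a median of 0.17 in wild type and 0.22 in gcn2, against 0.19 and 0.20 over the eligible loci, and was at most 0.47 and 0.67. The levels themselves had median SDs of 0.18 and 0.20 on the polysomal arrays and 0.21 and 0.26 on the non-polysomal arrays of wild type and gcn2. Loading varied less than either level in 62 loci in wild type and 59 in gcn2, as it did in AT5G20700. The eligible loci were not counted in this way, so whether these numbers are particular to the 150 loci is not known. Over the 150 loci the loadings of the genotypes, which share no array, had a Pearson r of 0.853, and over all eligible loci one of 0.931, a description across loci that says how alike both rankings were.

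To see the loading on arrays that took no part in the choice, the 150 loci were chosen again without each replicate number in turn, and their loading was read in the gradients left out. Of the original 150 loci, 139, 136 and 129 were chosen again without number 1, 2 and 3. In the left-out wild-type gradients the median loading was -1.41, -1.47 and -1.37, and in the left-out gcn2 gradients -1.42, -1.43 and -1.47. The 150 loci chosen in this way were negative without exception in each of the 6 left-out gradients, where 41.7% to 44.5% of the eligible loci were negative. The least negative value was -0.13, in the third wild-type gradient.

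**Figure D3:**
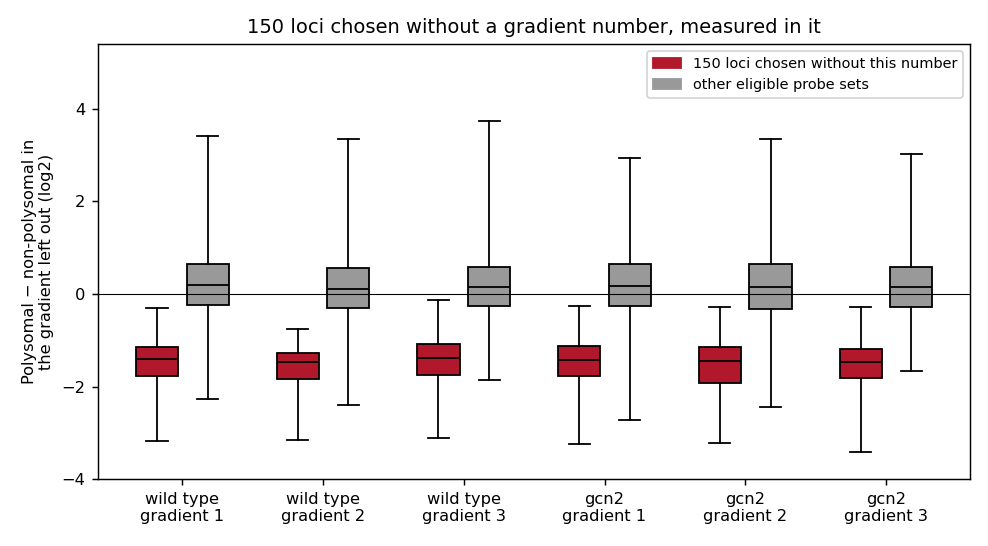
Loading (log2) in the gradient that was left out of the choice, for the 150 loci chosen without it and for the other eligible loci; boxes span the quartiles with a line at the median, and whiskers reach the lowest and highest value. In all 6 left-out gradients the boxes of the chosen loci lie between -2 and -1, and their whiskers end below 0.

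The loci were also chosen by the loading of 1 genotype and read in the other, whose fraction arrays took no part in that choice. The minimum level in wild-type total RNA still applied to both choices. The limma calls given here rest on a variance estimated over all arrays, so the arrays that chose the loci entered it. The 150 loci with the lowest wild-type loading included 125 of the 150, and their gcn2 loading ran from -3.23 to -0.48 with a median of -1.42. All 150 of them were called lower in polysomal than in non-polysomal RNA of gcn2 by limma, beside 13.4% of all tested probe sets. The 150 loci with the lowest gcn2 loading included 127 of the 150, and their wild-type loading ran from -3.15 to -0.58 with a median of -1.43. Of these, 148 were called lower in polysomal RNA of wild type by limma, beside 13.3% of all tested probe sets.

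All loadings are relative to the array as a whole. When the arrays were centred on the BioB and BioC probe sets instead of taken as deposited, the median loading over all that were tested became 0.86 instead of -0.07 in wild type and 0.81 instead of -0.04 in gcn2, a shift of 0.94 and 0.85. The median of the 150 loci became -0.50 and -0.59. The sign of all 150 loadings stayed negative, which follows from the arithmetic, since the rule put every locus at -0.96 or lower and the shift of each genotype was smaller than that. The limma calls for lower polysomal than non-polysomal RNA fell from 150 to 50 loci in wild type and to 62 in gcn2, beside 0.774% and 1.07% of all tested probe sets under the same centring.

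Total RNA, which the ranking used only through the minimum level, showed on which side of the whole transcript pool the fractions fell. Non-polysomal RNA was above total RNA by a median of 1.49 in wild type, with a range of -0.27 to 3.21, and of 1.48 in gcn2, with a range of -0.04 to 3.02. Polysomal RNA differed from total RNA by a median of -0.05 in wild type, with a range of -1.75 to 0.98, and of -0.16 in gcn2, with a range of -1.86 to 0.82. For all eligible loci these medians were -0.12 and -0.10 for non-polysomal RNA and 0.00 and -0.00 for polysomal RNA. The excess in the light fraction was thus the larger component of the loading, with the arrays as deposited. Under the control centring the position of total RNA between both fractions (0 at the polysomal and 1 at the non-polysomal level) had a median of 0.308 instead of 0.043 in wild type and of 0.602 instead of 0.097 in gcn2, so that in gcn2 the larger component became the deficit in polysomal RNA.

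By limma, 141 of the 150 loci were higher in non-polysomal than in total RNA in wild type and 140 in gcn2, beside 19.7% and 17.8% of all tested probe sets, and 0 were lower in either genotype. The 3 non-polysomal arrays lay above all 3 total RNA arrays in 136 and 141 loci, against 893 and 987 of the 3547 eligible probe sets. Polysomal against total RNA was mixed with the arrays as deposited: 16 loci were higher and 21 lower in wild type, beside 8.32% and 9.56% of all tested probe sets. In gcn2, 14 were higher and 30 lower, beside 8.81% and 10.3%. These counts depended on the scaling. Centred on the controls, non-polysomal RNA was above total RNA in 55 loci and below it in 5 in wild type, beside 1.12% and 78.3% of all tested probe sets, and above in 26 and below in 11 in gcn2, beside 0.598% and 86.4%. Polysomal RNA under that centring was higher than total RNA in 0 loci and lower in 5 in wild type, beside 0.967% and 2.64%, and higher in 0 and lower in 28 in gcn2, beside 0.325% and 8.28%. The fractions in these comparisons are the arrays that chose the loci, so the counts are descriptive. Total RNA lay below both fractions in 67 loci in wild type and 59 in gcn2, between them in 82 and 90, and above both in 1 locus of each. Of the 3547 eligible probe sets, total RNA lay below both in 1124 and 1104, between them in 1080 and 1146, and above both in 1343 and 1297. In 50 of the 150 loci total RNA lay below both fractions in both genotypes, a statement about levels relative to each array and not about amounts of RNA.

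**Figure D4:**
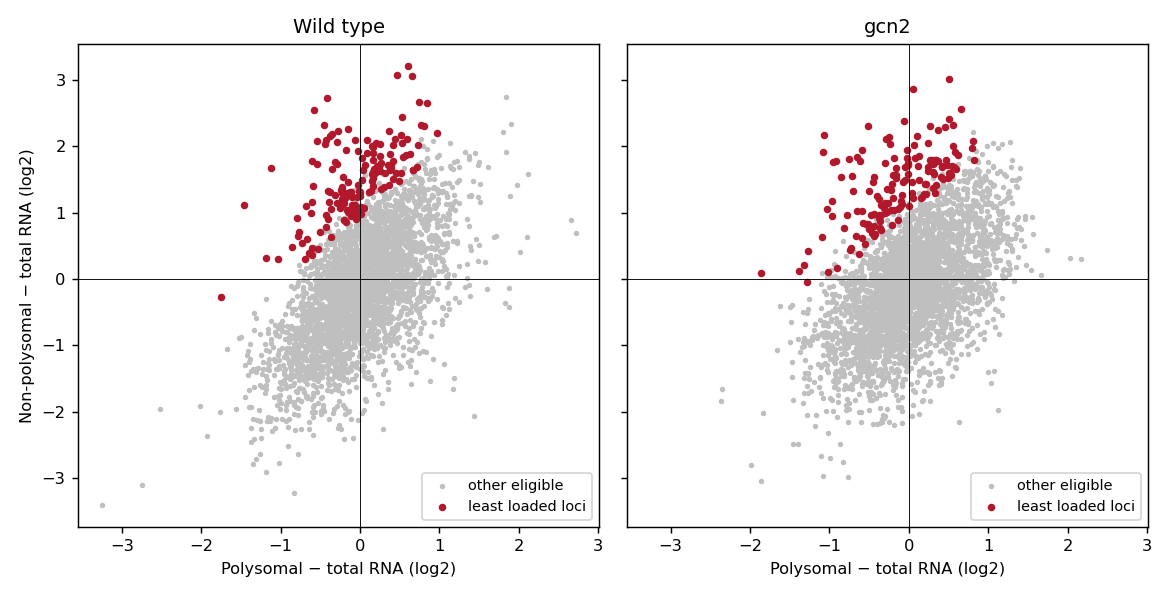
Polysomal minus total RNA (horizontal axis) against non-polysomal minus total RNA (vertical axis), both log2 differences of means of 3 arrays, in wild type (left) and gcn2 (right), for the 150 loci (red) and the other eligible loci (grey). The 150 loci spread on both sides of 0 horizontally, from -1.75 to 0.98 in wild type, and lie almost all above 0 vertically.

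Some loci departed from this common pattern, and the following were picked after their values were seen. AT4G31210 had total levels of 6.90, 6.91 and 7.20 in wild type, next to non-polysomal levels of 6.67, 7.07 and 6.47 and polysomal levels of 5.18, 5.12 and 5.47. Its polysomal RNA was below total RNA by 1.75 in wild type and 1.86 in gcn2 on the log2 scale, and its non-polysomal RNA differed from total RNA by only -0.27 and 0.10. AT2G41620 was alike, with polysomal minus total of -1.19 and -1.28 and non-polysomal minus total of 0.32 and -0.04. In both loci the difference between the fractions lay, with the arrays as deposited, mostly between polysomal and total RNA.

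At the opposite end, AT4G17245 had polysomal RNA above total RNA by 0.98 in wild type and 0.37 in gcn2, with wild-type total levels of 6.21, 7.55 and 6.02 of which the second was high. AT4G17790 had 0.81 and 0.27, and AT4G09830 had 0.84 and 0.48. In all 3 the non-polysomal levels were higher still. The largest excess of non-polysomal over total RNA was 3.21 in wild type, in AT2G32150, where gcn2 had 1.95, and 3.02 in gcn2, in AT3G47295, where wild type had 3.07.

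The comparison of genotypes least bound to the choice of the loci was gcn2 against wild type in total RNA. No locus passed an adjusted p of 0.05 in limma (0 of 150), beside 0.0352% of all tested probe sets. An unadjusted limma p under 0.05 was found in 7 loci and in 130 of the 3547 eligible probe sets. The gcn2 minus wild-type difference had a median of -0.04 and a range of -0.46 to 0.57, beside a median of -0.01 over the eligible loci. It was negative in 85 of the 150 and in 1869 of the 3547 eligible probe sets, all of which had to pass the minimum in wild-type total RNA. Of the 150 differences 149 (99.3%) lay within 0.5 of 0, as did 98.8% of the eligible loci. Single arrays moved these values: the median of the 150 loci was 0.015 without the third gcn2 total array and 0.0043 without the second wild-type total array. The number of loci with an unadjusted p under 0.05 was 25 without that wild-type array and 1 without the third one. Of the 3547 eligible probe sets, 559 and 24 had such a p in these fits. The sign of the median therefore changed with single arrays. In RNA of the whole aerial part a lower level could come from fewer cells that hold a transcript or from less transcript per cell, which cannot be told apart here.

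The positive differences in total RNA were led by loci in which single arrays decided the value. AT5G25560 had total levels of 7.47, 7.98 and 5.91 in wild type and 7.95, 7.55 and 7.58 in gcn2, so that the third wild-type array stood apart. Its difference of 0.57 (SE 0.39) became -0.034 without that array and 1.0 without the second one. AT2G32150 had 6.98, 8.57 and 6.26 in wild type and 8.18, 7.59 and 7.35 in gcn2, for a difference of 0.43 (SE 0.43) that became -0.073 without the third and 1.08 without the second wild-type array. In both loci the wild-type arrays spanned more than the genotype difference. AT3G44070 came next, with 0.33 (SE 0.23).

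On the negative side AT3G09735 had total levels of 7.81, 8.11 and 7.91 in wild type and 7.72, 7.57 and 7.17 in gcn2, a difference of -0.46 (SE 0.20) with no overlap between the groups. AT5G01350 had 8.42, 8.61 and 8.43 against 8.18, 8.13 and 7.91, a difference of -0.42 (SE 0.14), and again the groups did not overlap. AT1G06010 had 6.49, 6.08 and 6.86 against 6.17, 5.82 and 6.08, a difference of -0.45 (SE 0.20) with overlapping arrays. The adjusted p in limma was 1 for all 6 of these loci.

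In polysomal RNA 0 of 150 loci passed in limma, beside 0.022% of all tested probe sets. An unadjusted p under 0.05 was found in 13 loci and in 237 of the 3547 eligible probe sets. The gcn2 minus wild-type difference had a median of -0.12 and a range of -0.76 to 0.46, and 114 loci (76.0%) were negative, against 48.5% of the eligible loci. In non-polysomal RNA 0 of 150 passed, beside 0.0791%, and 37 had an unadjusted p under 0.05, as did 530 of the 3547 eligible probe sets. The median was -0.09, the range -0.83 to 0.69, and 93 loci (62.0%) were negative, against 47.9% of the eligible loci. With all arrays, more of these loci were thus lower than higher in gcn2 in both fractions, by differences that individually did not pass, and these arrays also chose the loci. Single arrays changed the sizes. The polysomal median lay between -0.062 without the third gcn2 polysomal array, where 58 loci were positive, and -0.217 without the first wild-type one. The number of polysomal differences with an unadjusted p under 0.05 ran from 4, without the second or the third wild-type polysomal array, to 22, without the first. Of the 3547 eligible probe sets, 94, 141 and 345 had such a p without the second, the third and the first. The non-polysomal median lay between -0.046 without the second and -0.189 without the first wild-type non-polysomal array. The number with an unadjusted p under 0.05 was 16 and 51 in these fits, beside 372 and 651 of the eligible probe sets. Centred on the controls, the medians were -0.38 in polysomal and -0.25 in non-polysomal RNA, while those of all tested probe sets were -0.23 and -0.16.

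The same-numbered fraction arrays deviated together, so a second fit took only the 12 fraction arrays and used their replicate number as a block. In that paired fit, and not in the block over all 18 arrays, 6 of 150 loci passed in non-polysomal RNA. Of these, 1 was higher and 5 were lower in gcn2, beside 0.835% and 1.05% of all tested probe sets. In polysomal RNA 1 locus was lower, beside 0.264%. Of the 3547 eligible probe sets, 35 were higher and 59 lower in non-polysomal RNA in that fit, and 9 higher and 15 lower in polysomal RNA. The fraction arrays also chose the loci, so these calls and their p-values are descriptive. AT2G32150 was lower in gcn2 in both fractions, by -0.83 (SE 0.17, limma adjusted p = 0.0204) in non-polysomal and -0.76 (SE 0.17, limma adjusted p = 0.0497) in polysomal RNA. AT4G09830 had non-polysomal levels of 9.58, 10.21 and 10.39 in wild type and 9.46, 9.25 and 9.02 in gcn2, a difference of -0.82 (SE 0.18, limma adjusted p = 0.0286). Its wild-type arrays all lay above its gcn2 arrays.

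AT5G16110 and AT5G43460 were lower in gcn2 as well in the paired fit. AT5G16110 had non-polysomal levels of 8.47, 9.27 and 9.12 in wild type and 7.87, 8.51 and 8.26 in gcn2, a difference of -0.74 (SE 0.14, limma adjusted p = 0.0132). AT5G43460 had 10.69, 11.00 and 11.25 against 10.06, 10.60 and 10.10, a difference of -0.73 (SE 0.16, limma adjusted p = 0.0322). In AT5G16110 the highest gcn2 array overlapped the lowest wild-type one, and in AT5G43460 the groups did not overlap.

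The last locus lower in gcn2 was AT2G14910, with 11.17, 11.86 and 11.90 against 10.77, 11.28 and 10.95 and a difference of -0.65 (SE 0.14, limma adjusted p = 0.0291). AT1G17090 was the locus higher in gcn2, with non-polysomal levels of 7.98, 7.47 and 7.20 in wild type and 8.76, 8.34 and 7.63 in gcn2, a difference of 0.69 (SE 0.13, limma adjusted p = 0.0155). Array 3 was its lowest and array 1 its highest in both genotypes, and its groups overlapped, as did those of AT2G14910. The calls of all 6 loci rest on the block over the 12 fraction arrays, a fit added after the data were seen. They were absent in the unpaired fit and in the block over all 18 arrays, where 0 of 150 passed in either fraction, beside 0.0659% of all tested probe sets in polysomal and 0.273% in non-polysomal RNA. Without the first wild-type non-polysomal array, 2 of them were called lower in the unpaired fit too, beside 0.343% of all tested probe sets, AT5G43460 at -0.88 (SE 0.18, limma adjusted p = 0.0352) and AT4G09830 at -1.06 (SE 0.18, limma adjusted p = 0.0117).

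**Figure D5:**
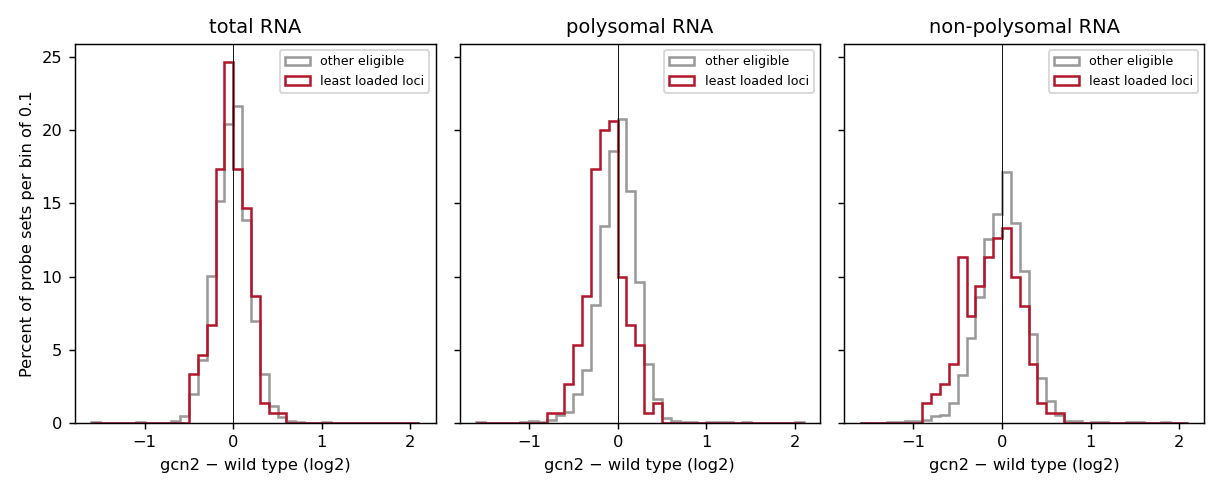
Histograms of the gcn2 minus wild-type log2 difference in total, polysomal and non-polysomal RNA, as percent of probe sets per bin of 0.1, for the 150 loci (red) and the other eligible loci (grey). The medians of the 150 loci are -0.04 in total, -0.12 in polysomal and -0.09 in non-polysomal RNA.

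The change of loading between genotypes was small for most loci. Its median was -0.03, its range -0.80 to 0.62, and 143 of the 150 (95.3%) lay within 0.5 of 0, as did 93.9% of the eligible loci. In limma 0 of 150 loci passed with or without the block. Of all tested probe sets 0.0044% passed in the unpaired fit, and 0.0044% higher and 0.00879% lower in the paired fit of the fraction arrays. In the unpaired fit 5 loci had an unadjusted p under 0.05, as did 207 of the 3547 eligible probe sets. Since the ranking took the larger of both loadings, it limited how far they could differ. Loading was lower in gcn2 in 81 loci and lower in wild type in the other 69, a split with no stable direction. Without the third gcn2 polysomal array 89 changes were positive, with a median of 0.054, and without the first wild-type polysomal array 51 were, with a median of -0.077.

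AT3G09470 had the largest fall of loading in gcn2. Its wild-type polysomal levels of 7.89, 7.82 and 7.47 faced non-polysomal levels of 9.33, 8.84 and 8.31, and in gcn2 levels of 7.67, 7.58 and 6.99 faced 9.71, 9.49 and 8.74, for loadings of -1.10 and -1.90 and a change of -0.80 (SE 0.38). AT1G26580 with -0.59 (SE 0.30) and AT3G61550 with -0.55 (SE 0.27) came next. In each of the 3 the change was about 2 SE.

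In the other direction AT5G05710 had loadings of -1.6 in wild type and -0.98 in gcn2, a change of 0.62 (SE 0.23). Its non-polysomal levels were 7.89, 8.29 and 8.27 in wild type and 7.58, 7.65 and 7.80 in gcn2, with no overlap, while its polysomal levels of 6.32, 6.67 and 6.64 and of 6.72, 6.87 and 6.49 overlapped. AT1G30880 had a change of 0.59 (SE 0.27) and AT4G09830 one of 0.57 (SE 0.27). The limma adjusted p of these 6 loci lay between 0.928 and 0.952. They were named for the largest changes, so a lack of overlap between their arrays carries no test.

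Among probe sets annotated to 1 gene alone, one other than the chosen one existed for 3 of the loci. Probe sets annotated to several genes were not searched. AT3G09470 had a further probe set, at a wild-type total level of 6.42, with loadings of -1.17 in wild type and -0.86 in gcn2. That probe set placed the lower loading in wild type where the chosen one placed it in gcn2, so the change of loading of this locus differed in sign between its probe sets. The further probe sets of AT3G22290, at a total level of 3.57, and of AT2G37840, at 3.98, were near the dim end of the arrays and had loadings of -0.46 and -0.32 and of -0.29 and 0.09 in wild type and gcn2.

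The loci lay on all 5 nuclear chromosomes, 38 on chromosome 1, 25 on chromosome 2, 28 on chromosome 3, 24 on chromosome 4 and 35 on chromosome 5. Their shares of 25.3%, 16.7%, 18.7%, 16.0% and 23.3% were near those of the eligible loci, at 26.0%, 14.8%, 21.1%, 14.2% and 23.9%. No 2 of the 150 were neighbours in the order of protein-coding genes, where the eligible loci held 542 neighbouring pairs. Whether fewer pairs were seen than the number of loci implies was not tested. Neighbouring genes were read only where the annotation knew them by a locus code alone, so neighbours with a gene name were left out. Of the neighbours read, 47 had a wild-type total level of 6 or more. Their median loading was 0.17 in wild type and 0.14 in gcn2, and 16 of the 47 (34.0%) were negative in wild type, against 42.1% of the eligible loci. Of the 47 neighbours 1, AT3G14600 beside AT3G14595, had a wild-type loading of -1 or lower. The share of eligible loci with so low a loading was not counted, so this number has no background to be read against.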

How the data were processed

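RNA of 6 groups with 3 arrays each was measured on Affymetrix ATH1 arrays. The deposited table holds log2 signals per probe set, made by the authors. RMA, affy and MAS5 are named, per the submitters' processing notes, without role or version, so the summarization is not given in the sources used here. No column of another sample was left unused (0). Of 22810 probe sets, 64 controls were left out and 22746 tested. The platform annotation gave 1 gene to 13513 of these and several to 503, and 8730 were not listed. The RefSeq table of the TAIR10.1 assembly served for names, gene type and neighbour order and not for coordinates. It holds no product descriptions or sequences, so the planned description classes and sequence features were not computed, no sequence is shown, and loci keep their codes without roles.

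Groups and replicate numbers came from the sample titles. Of 153 pairs of arrays, 0 were identical. Contrasts were fitted in limma 3.58.1 under R 4.3.3 to all 18 arrays and 6 groups without a filter, with empirical Bayes moderation (12 residual degrees of freedom) and Benjamini-Hochberg adjustment over all tested probe sets at 0.05. The fit was tested on simulated data. With 3 against 3 arrays a permutation test cannot go below 0.1, so single values were not tested in that way. Array number limits the precision, and depth does not apply. Same-numbered arrays were compared by their deviations from the group means. For each of the 6 pairings of fraction groups the correlation was between 0.184 and 0.588, so the titles' numbers pair the fraction arrays. For total RNA the correlation between genotypes was 0.0157 to 0.429, and those arrays were not taken as paired.

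Named are the 12 loci with the lowest ranking value, 3 on each side of the limit, the 3 extremes in each direction of loading change, wild-type total level and total RNA difference, and loci that passed a genotype comparison. Others are said to have been picked after their values were seen. The loci, the lists and the alternatives were chosen with earlier results of these data known. Alternatives were quantile normalization, an added dim filter at a mean of 5, other minimum levels, ranking by the mean, the replicate block, and leaving out arrays. The block on the 12 fraction arrays, the control centring, ranking by 1 genotype and the comparisons of fractions with total RNA were added after the data were seen.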

Additional observations from a re-analysis of the deposited data

How the results depend on the processing

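With the replicate block on the 12 fraction arrays, non-polysomal calls between genotypes rose from 0 to 6 and polysomal calls from 0 to 1. With the replicate block on all 18 arrays they were 0 in total RNA, in both fractions and for the change of loading. Leaving out single arrays gave 0 to 2 non-polysomal calls, 2 of them without the first wild-type non-polysomal array, and 0 calls in the other contrasts. The median loading was -1.6 in wild type and -1.6 in gcn2 after quantile normalization of all arrays, and -0.50 and -0.59 after centring on the control probe sets, where the position of total RNA moved to 0.308 and 0.602. Without a replicate number the median loading was between -1.47 and -1.40 in wild type and between -1.45 and -1.43 in gcn2, and the position of total RNA between -0.01 and 0.07 and between 0.07 and 0.15. A minimum total level of 7 kept 87 of the 150 loci and one of 5 kept 101, and leaving out a replicate number kept 129 to 139. A higher minimum only removes competing loci, so the 87 are the loci at 7 or more and say nothing of stability. Leaving out single arrays moved the total RNA difference of AT5G25560 between -0.034 and 1.0 and that of AT2G32150 between -0.073 and 1.08, and both reversed without the third wild-type total array. The loading of named loci kept its side of the threshold in all planned settings, and 14 values in wild type and 13 in gcn2 lost their call under the control centring, whose cause was not tested.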
